A study of Prunus persica with 84 samples.

Results

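The 8 genes described here are the enzymes and the carrier of the anthocyanin pathway, followed in peach (Prunus persica) floral buds from cold storage to the start of bloom. They were picked by identifier out of the 26879 genes in the count table. PRUPE_1G002900 and PRUPE_1G003000 were taken as chalcone synthase (CHS), PRUPE_2G225200 as chalcone isomerase (CHI), PRUPE_7G168300 as flavanone 3-hydroxylase (F3H) and PRUPE_1G376400 as dihydroflavonol 4-reductase (DFR). PRUPE_5G086700 was taken as anthocyanidin synthase (ANS), PRUPE_2G324700 as the glucosyltransferase UFGT and PRUPE_3G013600 as the glutathione S-transferase (GST) that carries anthocyanins to the vacuole. These names are those of the selection rule. The count table holds identifiers alone, and the names were not checked against sequence here. All 8 genes passed the filter on low counts.

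The buds came from the genotypes KV021779, written LP in the sample titles, and John Boy, written JB, on cut shoots standing in water. Shoots of both genotypes were held at 4 °C and sampled after 0, 100, 200, 400, 600, 800 and 1000 h, then moved to 22 °C and sampled after 1, 4, 8, 12, 16 and 20 d, with LP also at 24 and 28 d. LP began to bloom at 28 d of warmth and JB at 20 d. Each of the 28 groups had 3 libraries, 84 in all. The only unchilled libraries are those of 0 h, and no shoots kept unchilled over the same hours are among the samples used here, so cold and time on cut shoots cannot be told apart in the first part of the course. The labels do not say whether replicates came from separate trees, and the spread behind every p-value may therefore be technical. In whole buds, fewer cells of a type and less RNA per cell cannot be told apart.

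Anthocyanins are the red to blue pigments of petals and fruit skins. CHS joins malonyl and coumaroyl units into a chalcone, CHI closes its ring, and F3H adds a hydroxyl group to give dihydroflavonols. DFR and ANS then make the coloured anthocyanidin, UFGT stabilises it by adding a sugar, and the GST is needed to store the product in the vacuole. The steps up to F3H are shared with flavonols, and DFR and ANS also feed proanthocyanidins, the tannins of many dormant tissues. The sugar transfer and the GST come after these steps, and neither is taken here as specific to anthocyanins.

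LP libraries held 8823829 to 16989188 counts and JB libraries 8021919 to 26346177. Log2 CPM of replicate pairs had Pearson correlations across genes of 0.966 to 0.995, with the lowest for pairs with LP 28 d replicate 3 or JB 12 d replicate 3 (0.987 at the lowest without them). Results at these times are given with and without those libraries where that changes them. PRUPE_DAM4, PRUPE_DAM5 and PRUPE_DAM6, dormancy-associated genes of winter buds, were present at 0 h, with 113 to 679 CPM in LP and 109 to 508 CPM in JB. Levels are CPM, read counts relative to the TMM-scaled library total, and are not divided by gene length, so levels are compared between groups and not between genes.

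The genes fell into 2 kinds of course. Both CHS genes, CHI, F3H, DFR and ANS were read in every library, at 57.2 CPM or more, including dormant buds in the cold. Their highest and lowest group means were 3.71-fold (F3H) to 7.27-fold (CHS PRUPE_1G002900) apart. UFGT and GST stayed near the limit of detection through chilling and most of the warm period, and their highest group means came at the start of bloom. GST had no read in 38 of the 84 libraries, and UFGT had none in 2. UFGT ranged over 198-fold between its lowest and highest group means.

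**Figure D1:**
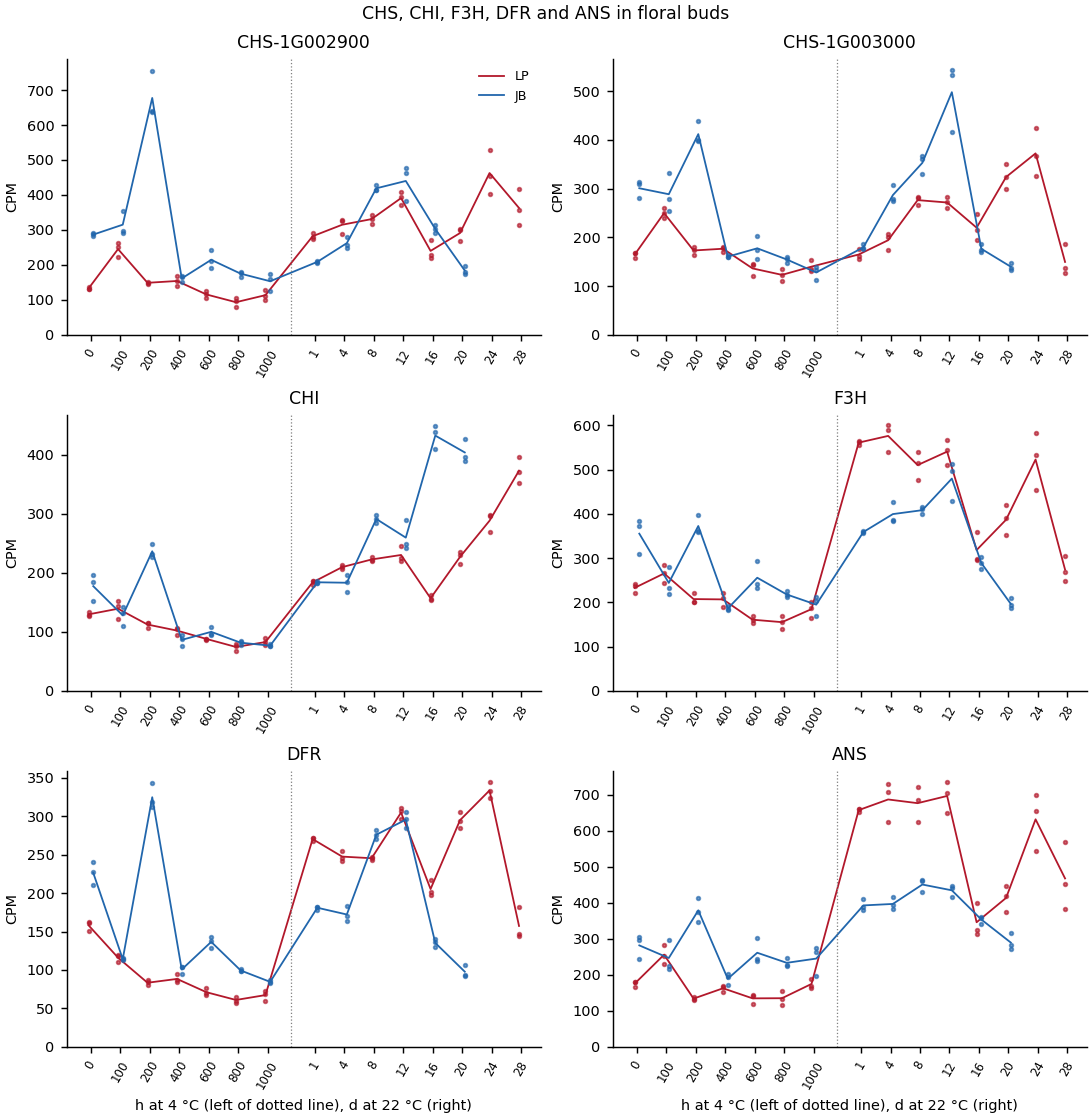
Level in CPM of both CHS genes, CHI, F3H, DFR and ANS by time at 4 °C (h, left of the dotted line) and at 22 °C (d, right), in LP (red) and JB (blue). Points are libraries and lines join group means of 3. LP holds the higher ANS and F3H levels from 1 to 8 d, JB shows a peak at 200 h, and CHI alone of the 6 is at its highest at 16 d in JB and 28 d in LP.

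During chilling the genotypes moved in opposite directions between 100 and 200 h: the 6 abundant genes fell in LP and rose in JB. For some genes the LP fall followed a rise. From 0 to 100 h in LP, mean CHS PRUPE_1G002900 went from 132 to 245 CPM, PRUPE_1G003000 from 164 to 250 CPM and ANS from 175 to 256 CPM. Over the same hours DFR went from 158 to 116 CPM in LP, CHI from 130 to 139 CPM and F3H from 233 to 265 CPM. CHS PRUPE_1G002900 had 262, 252 and 222 CPM in LP at 100 h and 146, 149 and 150 CPM at 200 h, and DFR had 119, 119 and 110 CPM and then 83.7, 86.2 and 80.0 CPM. The 6 abundant genes fell in LP over this step (6 of 8 members, 4.92% of tested genes with no fold minimum), by 0.31 (CHI) to 0.93 (ANS) on the log2 scale (edgeR quasi-likelihood test over all genes), and the calls of CHI and F3H were lost without replicate 1 or 2 of every group.

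In JB the level rose at 200 h and had fallen again by 400 h. CHS PRUPE_1G002900 had 292, 355 and 297 CPM in JB at 100 h, 755, 640 and 637 CPM at 200 h, and 151, 165 and 167 CPM at 400 h. The 200 h libraries stood above those of both neighbouring times without overlap. DFR followed the same course in JB, with 115, 112 and 115 CPM at 100 h, 344, 318 and 313 CPM at 200 h, and 103, 104 and 94.4 CPM at 400 h. From 0 to 100 h in JB, mean DFR had gone from 226 to 114 CPM, F3H from 355 to 244 CPM and CHI from 177 to 128 CPM. Over those hours CHS PRUPE_1G002900 went from 287 to 315 CPM, PRUPE_1G003000 from 301 to 288 CPM and ANS from 282 to 246 CPM. Between 100 and 200 h in JB, DFR rose by 1.51 ± 0.07 on the log2 scale (SE, adjusted p = 1.21e-30, edgeR quasi-likelihood test over all genes), CHS PRUPE_1G002900 by 1.10 ± 0.10 (adjusted p = 9.92e-15) and CHI by 0.88 ± 0.08 (adjusted p = 5.16e-15). PRUPE_1G003000, F3H and ANS rose by 0.51 to 0.62, and UFGT and GST did not pass the test, so that 6 of 8 genes rose (10.4% of tested genes did, with no fold minimum). By 400 h all 8 genes had fallen at least 2-fold in JB from 200 h (8 of 8 members, where 6.09% of the 21168 tested genes did so), and among the 6 abundant genes F3H fell by 1.00 and CHS PRUPE_1G002900 fell by 2.07, the ends of the range. GST had 11 reads over the JB libraries at 200 h and none at 400 h, and the calls of GST and UFGT in this step were lost without replicate 2 of every group, that of UFGT also without replicate 3.

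The difference of the 100 to 200 h step between genotypes, a comparison chosen after the data were seen, was called with at least 2-fold for 5 of the 8 genes, all more negative in LP, where 2.87% of tested genes were. For the 200 to 400 h step, which shares the 200 h libraries, the difference was called for 5 of 8 genes in the other direction (3.91% of tested genes). The 100 to 200 h difference was largest for DFR, at -1.99 ± 0.09 (LP minus JB, adjusted p = 2.54e-28). At 200 h itself LP was at least 2-fold lower for 5 of 8 genes (10.2% of tested genes), with DFR at 83.3 ± 3.2 CPM in LP and 325 ± 17 CPM in JB (SD, n = 3 each).

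Before chilling, the 6 abundant genes were lower in LP than in JB, and GST was higher. At 0 h, CHS PRUPE_1G002900 had 132, 136 and 130 CPM in LP, against 281, 291 and 287 CPM in JB, a log2 difference of -1.11 ± 0.10 (adjusted p = 8.49e-15). F3H, CHI, DFR, ANS and PRUPE_1G003000 were lower in LP by 0.45 to 0.87 on the log2 scale, so 6 of 8 genes were lower (20.9% of tested genes with no fold minimum). GST had 0.827 to 1.60 CPM in LP libraries at 0 h and 0.199 to 0.354 CPM in JB libraries, so the groups did not overlap (log2 difference 2.08 ± 0.57, adjusted p = 0.00251). Leaving out replicate 1 throughout ended that call (1.48, adjusted p = 0.142), and it rests on 40 reads in LP and 7 in JB.

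Over the whole chilling period most of the genes fell in both genotypes. At 1000 h against 0 h, 3 of 8 genes were at least 2-fold lower in LP (11.5% of tested genes) and 4 in JB (12.5%), and none was higher by that measure in LP (5.75%) or in JB (8.52%). In a fit of only the LP libraries at 0 and 1000 h the LP count was 1, DFR, because UFGT and GST did not pass the filter on low counts there. Of these calls, that of UFGT in LP was lost without replicate 1 or 2 of every group and that of GST in JB without replicate 2. DFR fell to 67.3 ± 6.6 CPM in LP at 1000 h, against 158 ± 6.4 CPM at 0 h (log2 change -1.23 ± 0.07, adjusted p = 1.7e-26), and to 84.5 ± 1.8 CPM in JB, against 226 ± 15 CPM (-1.42 ± 0.07, adjusted p = 6.11e-30). ANS did not pass the test in LP (174 ± 13 CPM at 1000 h against 175 ± 7.3 CPM at 0 h, adjusted p = 1) or in JB (245 ± 42 CPM at 1000 h against 282 ± 33 CPM at 0 h, adjusted p = 0.111). The fall was smaller in LP for CHS PRUPE_1G003000, by 1.00 ± 0.14 (adjusted p = 1.14e-07), for PRUPE_1G002900 by 0.68 ± 0.15 (adjusted p = 0.000172), and for CHI and F3H by 0.56 and 0.54, where the call of CHI was lost without replicate 2 and that of F3H without replicate 1. These were 4 of 8 genes with no fold minimum (17.2% of tested genes) and 1 at 2-fold or more (2.99%), and that 1 fell just short of 2-fold under DESeq2, its size factors and the fit of only the groups compared (0.97 in each), and without replicate 1 or 2 or JB 12 d replicate 3. GST had no read at 1000 h in either genotype. Averaged over the 7 chilling times, no gene was at least 2-fold apart between genotypes, where 7.17% of tested genes were lower and 3.32% higher in LP. Without a fold minimum 7 of 8 were lower in LP by this test, against 6847 of 21168 tested genes (32.3%), from -0.20 ± 0.03 for CHI to -0.85 ± 0.04 for CHS PRUPE_1G002900, and that of UFGT was lost without replicate 2.

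Within the first day at 22 °C both CHS genes, CHI, F3H, DFR and ANS rose in both genotypes, 4 of them further in LP. With no fold minimum 6 of 8 genes rose in LP (30.9% of tested genes) and 8 of 8 in JB (32.8%), and the call of CHS PRUPE_1G003000 in LP was lost without replicate 1. ANS had 660, 651 and 661 CPM in LP at 1 d, against 164, 189 and 170 CPM at 1000 h. In JB, ANS had 381, 410 and 387 CPM at 1 d, against 197, 274 and 263 CPM at 1000 h. The rise in ANS was 1.91 ± 0.11 in LP (adjusted p = 2.4e-24) and 0.68 ± 0.11 in JB (adjusted p = 2.13e-07), and the difference between them, again a comparison chosen after the data were seen, was 1.23 ± 0.16 (adjusted p = 1.13e-09). DFR rose by 2.01 ± 0.07 in LP and by 1.10 ± 0.07 in JB (difference 0.91 ± 0.09, adjusted p = 6.77e-13). F3H and CHS PRUPE_1G002900 also rose further in LP, by 0.72 and 0.87, whereas CHI rose by 1.15 ± 0.08 in LP and 1.27 ± 0.08 in JB (difference -0.11 ± 0.11, adjusted p = 0.477). The difference of the first-day step was more positive in LP for 4 of 8 genes with no fold minimum (17.4% of tested genes) and for 1, ANS, at 2-fold or more (4.69%). It was more negative for 1, UFGT, by either measure (21.6% and 7.92%). In all, 5 of 8 genes rose at least 2-fold in LP within 1 d (13.3% of tested genes) and 4 in JB (14.5%). The median log2 change over the 8 genes in JB was 0.99, against 0.02 over all tested genes.

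UFGT and GST rose on the first warm day in JB, and in LP they did not pass the test. UFGT had 0.849, 0.337 and 0.294 CPM in LP at 1 d, against 4.29, 4.58 and 4.61 CPM in JB, so LP lay below JB without overlap (log2 difference -3.21 ± 0.33, adjusted p = 3.8e-13). At 1000 h UFGT had 0.483 ± 0.26 CPM in LP and 0.803 ± 0.60 CPM in JB. The rise of UFGT by 1 d in JB was 2.52 ± 0.33 (adjusted p = 6.62e-10), and the value in LP was -0.10 ± 0.51 (adjusted p = 0.9). The difference of these responses was -2.62 ± 0.65 (LP minus JB, adjusted p = 0.000744), but with replicate 3 left out throughout it missed the threshold (-1.48, adjusted p = 0.127). GST had 2 reads over the LP libraries at 1 d and 42 over the JB libraries, where it stood at 1.16, 1.17 and 1.33 CPM. Against the floor of 3 reads per group at 1000 h, GST was at least 12.1-fold higher in JB at 1 d. Both fell again in JB by 4 d, with log2 changes of -1.42 ± 0.27 for UFGT (adjusted p = 1.85e-05) and -3.31 ± 0.63 for GST (adjusted p = 2.35e-05).

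**Figure D2:**
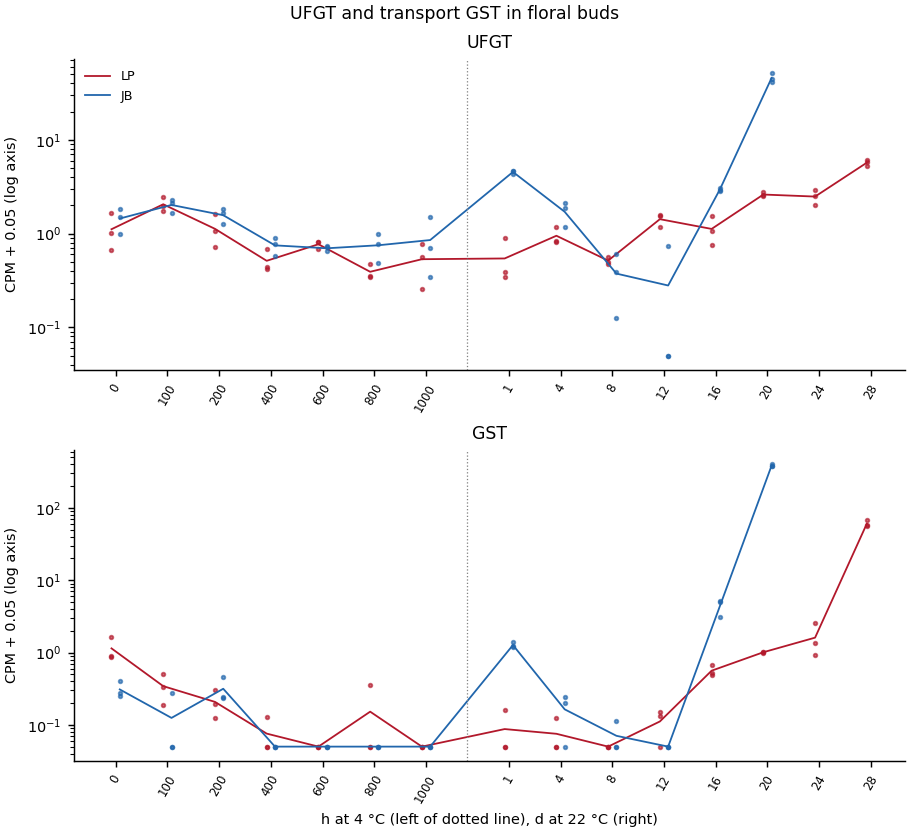
Level of UFGT and of the transport GST by time at 4 °C (h) and 22 °C (d) in LP (red) and JB (blue), as CPM plus 0.05 on a log axis, so that libraries without a read sit at 0.05. Points are libraries and lines join group means. LP is highest at 28 d, after smaller rises from 12 d for UFGT and from 16 d for GST. JB has a small peak at 1 d and a steep rise at 16 and 20 d to higher levels.

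After the first day both CHS genes rose further in JB by 4 d, while in LP no member passed the test in that step. In JB the same step gave -0.01 for CHI, 0.15 for F3H, -0.07 for DFR and 0.02 for ANS, none of them called. In LP, ANS had means of 657, 687, 677 and 697 CPM at 1, 4, 8 and 12 d, and F3H 561, 576, 510 and 541 CPM. In LP between 1 and 4 d no member was called with at least 2-fold (0 of 8, with edgeR, where 4.03% of tested genes rose and 1.36% fell by that measure). None passed without a fold minimum either, and for that measure no share of tested genes is given. With shares this small, 0 of 8 is not read as a trait of the members. At an unadjusted p under 0.05 there were 4 genes, CHS PRUPE_1G003000, CHI, DFR and UFGT, and DESeq2 called 1, CHI. Later in LP, mean CHS PRUPE_1G003000 went from 194 CPM at 4 d to 276 CPM at 8 d, and DFR from 245 CPM at 8 d to 305 CPM at 12 d. CHS PRUPE_1G002900 and CHI went from 315 and 210 CPM at 4 d to 391 and 230 CPM at 12 d in LP. Between 4 and 8 d CHS PRUPE_1G002900, CHI and DFR rose in JB by 0.67 to 0.68 on the log2 scale. CHS PRUPE_1G003000 rose by 0.30 ± 0.10 (adjusted p = 0.0181, edgeR quasi-likelihood test), while F3H and ANS gave 0.03 ± 0.09 and 0.18 ± 0.11 (adjusted p = 0.854 and 0.228). In JB, CHS PRUPE_1G003000 lay between 175 and 186 CPM at 1 d, between 275 and 307 CPM at 4 d, between 331 and 367 CPM at 8 d, and between 416 and 544 CPM at 12 d, its highest group. Both CHS genes, F3H and DFR had their highest warm mean at 12 d in JB, and ANS at 8 d, with ANS and CHS PRUPE_1G002900 libraries of 8 and 12 d overlapping. For CHS PRUPE_1G002900 the overlap came from JB 12 d replicate 3 alone, at 382 CPM. Its other 12 d libraries had 476 and 462 CPM, and those of 8 d 414 to 427 CPM. In LP at 12 d ANS exceeded its JB level by 0.68 ± 0.11 (adjusted p = 1.98e-07), while CHS PRUPE_1G003000 was lower in LP by 0.88 ± 0.10, with 271 ± 11 CPM in LP and 498 ± 71 CPM in JB (adjusted p = 9.55e-12).

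UFGT fell in JB over the same days, by 2.27 ± 0.42 on the log2 scale between 4 and 8 d (adjusted p = 1.49e-05). It had 1.81, 2.04 and 1.12 CPM in JB at 4 d, 0.0745, 0.344 and 0.555 CPM at 8 d and 0, 0 and 0.689 CPM at 12 d. At 12 d UFGT had 1.12 to 1.52 CPM in LP, and the only 6 JB reads were in replicate 3, the library that stood apart (log2 difference between genotypes 2.66 ± 0.55, adjusted p = 3.22e-05). Against 1000 h, the low JB values at 8 and 12 d did not hold as calls without replicate 1 or without replicate 2 of every group.

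LP then passed through a dip at 16 d that most of the abundant genes shared. ANS had 705, 650 and 735 CPM in LP at 12 d, 324, 313 and 400 CPM at 16 d, 447, 375 and 419 CPM at 20 d and 698, 654 and 543 CPM at 24 d. Between 12 and 16 d all 6 abundant genes fell in LP (16.4% of tested genes with no fold minimum), by 0.30 (CHS PRUPE_1G003000) to 1.01 (ANS) on the log2 scale, but only ANS fell by 2-fold (1 of 8 members, 2.53% of tested genes). The call for CHS PRUPE_1G003000 was lost without replicate 1 or 2 of every group. Both CHS genes and DFR had their highest LP means at 24 d, with 463 ± 63 CPM for PRUPE_1G002900, 372 ± 50 CPM for PRUPE_1G003000 and 334 ± 11 CPM for DFR.

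The last steps to bloom split the pathway. UFGT and GST rose while both CHS genes, F3H, DFR and ANS fell in both genotypes, 5 of 8 in LP (29.4% of tested genes with no fold minimum) and 5 of 8 in JB (32.2%). In LP, GST had 0.446, 0.465 and 0.622 CPM at 16 d, 0.955, 0.942 and 0.981 CPM at 20 d, 0.865, 1.31 and 2.49 CPM at 24 d and 56.1, 57.8 and 67.3 CPM at 28 d, the last at least 667-fold above the floor at 1000 h. UFGT had 2.47, 2.84 and 1.98 CPM in LP at 24 d and 5.17, 5.99 and 5.79 CPM at 28 d. In JB, GST had no read at 12 d, 5.06, 3.04 and 4.91 CPM at 16 d and 402, 374 and 379 CPM at 20 d, the last being 12087 reads. GST in JB at 20 d was at least 3826-fold above the floor of 3 reads at 1000 h. UFGT had 2.87, 3.04 and 2.80 CPM in JB at 16 d and 51.2, 44.2 and 41.4 CPM at 20 d. The libraries at the start of bloom stood above all earlier warm libraries of their genotype for both genes.

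Between the last 2 sampled days GST rose by 5.32 ± 0.19 in LP (adjusted p = 1.66e-30) and by 6.46 ± 0.16 in JB (adjusted p = 4.49e-38), and UFGT by 1.22 ± 0.25 in LP (adjusted p = 2.06e-05) and 3.97 ± 0.21 in JB (adjusted p = 1.41e-26). The difference of these steps, chosen after the data were seen, was at least 2-fold more negative in LP for 2 of 8 genes (6.23% of tested genes), with -2.75 ± 0.34 for UFGT (LP minus JB, adjusted p = 1.97e-10) and -1.13 ± 0.31 for GST (adjusted p = 0.00235), and the GST call ended when replicate 3 was left out throughout (-0.74, adjusted p = 0.1). UFGT and GST were the only 2 genes of the 8 to rise at least 2-fold in this step in LP (11.1% of tested genes) and likewise in JB (8.39%). Over the same step DFR fell by 1.09 ± 0.06 in LP (adjusted p = 2.2e-24) and by 0.47 ± 0.07 in JB (adjusted p = 4e-09), and F3H fell by 0.93 ± 0.09 in LP and 0.56 ± 0.09 in JB. The falls of ANS and of CHS PRUPE_1G002900 in LP, 0.43 and 0.35, were lost without replicate 1 or 2 of every group, and that of ANS in JB, 0.29, without replicate 2 or 3. In the JB step before, between 12 and 16 d, CHS PRUPE_1G003000 fell by 1.50 ± 0.10 and DFR by 1.13 ± 0.06 (2 of 8 members at least 2-fold lower, 7.52% of tested genes). In that step F3H gave -0.73, CHS PRUPE_1G002900 -0.54 and ANS -0.30, where the last JB step gave -0.56, -0.72 and -0.29, and the steps were not tested against each other.

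CHI took another course: in this step it rose by 0.37 ± 0.08 in LP (adjusted p = 2.59e-05) and gave -0.10 ± 0.08 in JB (adjusted p = 0.263). In LP it had 153, 155 and 162 CPM at 16 d, 236, 216 and 230 CPM at 20 d, 296, 299 and 270 CPM at 24 d and 352, 371 and 397 CPM at 28 d, above every earlier LP library. In JB it had 299, 291 and 285 CPM at 8 d, 248, 242 and 289 CPM at 12 d, 449, 411 and 439 CPM at 16 d and 427, 390 and 396 CPM at 20 d. Against 1000 h, CHI rose by 2.18 ± 0.08 in LP to 28 d (adjusted p = 9.26e-36) and by 2.40 ± 0.08 in JB to 20 d (adjusted p = 4.95e-38). The log2 difference of LP from JB in CHI was -1.46 ± 0.08 at 16 d and -0.83 ± 0.08 at 20 d (adjusted p = 1.37e-26 and 1.53e-15).

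Set against the end of chilling, CHS PRUPE_1G002900, F3H, DFR and ANS stood further above 1000 h in LP at its bloom than in JB at its own. CHI and CHS PRUPE_1G003000 did not. At 1000 h, CHS PRUPE_1G002900 averaged 113 CPM in LP and 153 CPM in JB, and ANS 174 and 245 CPM. DFR averaged 67.3 and 84.5 CPM, and F3H 185 and 195 CPM. These means were lower in LP, but libraries of the genotypes overlapped for CHS PRUPE_1G002900 and F3H. The part of the starting levels in the responses was not tested. In LP 6 of 8 genes were at least 2-fold higher at 28 d than at 1000 h (23% of tested genes), and 8 of 8 at 20 d (17.3%). The median over the 8 genes was 1.55 in LP at 28 d and 0.25 in JB at 20 d, against 0.02 and -0.03 over all tested genes. In JB at 20 d 3 of 8 were (22.2%), namely CHI, UFGT and GST, while F3H was at 196 ± 12 CPM at 20 d and 195 ± 23 CPM at 1000 h (log2 change 0.01 ± 0.09, adjusted p = 0.913). At 20 d, against 1000 h, the response was at least 2-fold more positive in LP for 5 of 8 genes (15.3% of tested genes) and more negative for 1, UFGT (13.2%). Of the 5, DFR stood at 1.92 ± 0.09 and the other 4 at 1.00 to 1.10, and the count was 3 with DESeq2 or its size factors and 1 without replicate 3 of every group. The smaller JB changes of CHS PRUPE_1G002900, DFR and ANS at 20 d, 0.21 to 0.26 on the log2 scale, passed the test but not without replicate 1 of every group. At each genotype's own bloom the response was more positive in LP by at least 2-fold for CHS PRUPE_1G002900 (1.41 ± 0.14, adjusted p = 2.86e-13), ANS (1.18 ± 0.16, adjusted p = 1.88e-09) and DFR (1.01 ± 0.09, adjusted p = 6.7e-15), 3 of 8 members where 12.3% of tested genes were, and 1 of 8 without replicate 3 of every group. UFGT was more negative (-2.42 ± 0.58, adjusted p = 0.000321; 9.96% of tested genes), and with replicate 3 left out throughout it missed the threshold (-1.58, adjusted p = 0.0594). GST had no read at 1000 h in either genotype, so its difference of responses was not estimated.

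Levels at the start of bloom were compared directly as well. GST averaged 60.4 ± 6.0 CPM in LP at 28 d and 385 ± 15 CPM in JB at 20 d (SD, n = 3 each), a log2 difference of -2.67 ± 0.12 (adjusted p = 4.16e-26). UFGT averaged 5.65 ± 0.43 CPM in LP and 45.6 ± 5.0 CPM in JB, a difference of -3.01 ± 0.20 (adjusted p = 4.56e-22). Those 2 genes were the members at least 2-fold lower in LP (11.5% of tested genes), and none was at least 2-fold higher (11.3%), where CHS PRUPE_1G002900 came closest with 0.98 ± 0.10. CHI and CHS PRUPE_1G003000 gave -0.12 ± 0.08 and 0.10 ± 0.10 and did not pass. Against JB at 16 d instead, a pairing chosen after the data were seen, LP at 28 d was 3.78 ± 0.16 higher for GST (adjusted p = 3.54e-27) and 0.96 ± 0.24 higher for UFGT (adjusted p = 0.00064), and the other 6 genes lay within 0.40 of JB on the log2 scale. For GST and UFGT, LP at 28 d lay between JB at 16 d and JB at 20 d.

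**Figure D3:**
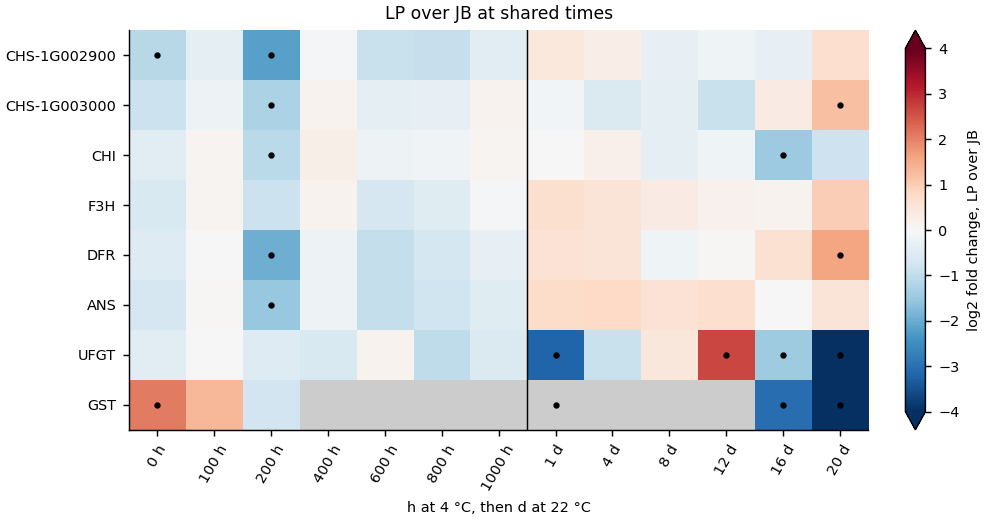
Log2 fold change of LP over JB for each gene (rows) at the 13 shared times (columns), blue where LP was lower and red where it was higher, with the scale ending at 4 on both sides. Dots mark calls with at least 2-fold, and grey cells are those where a group had 3 reads or fewer. LP is lower for 5 genes at 200 h, and at 20 d DFR and CHS PRUPE_1G003000 are called higher while UFGT and GST are called lower.

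At 20 d, the last day sampled in both, all 8 genes differed between genotypes, 5 higher in LP (37% of tested genes with no fold minimum) and 3 lower (34.9%). LP was at least 2-fold higher for 2 of 8 (16.1% of tested genes) and lower for 2 (17.8%). DFR had 306, 285 and 294 CPM in LP at 20 d, against 107, 93.9 and 92.6 CPM in JB (log2 difference 1.59 ± 0.07, adjusted p = 1.8e-33). GST had 0.955, 0.942 and 0.981 CPM in LP, against 402, 374 and 379 CPM in JB (-8.63 ± 0.20, adjusted p = 2.4e-40), and UFGT gave -4.15 ± 0.22. Over all 7 chilling times, 1 of 56 pairs of gene and time was at least 2-fold higher in LP (4.01% of pairs over all tested genes) and 6 were lower (7.51%). Over the 6 shared warm times, 3 of 48 pairs were higher (8.47%) and 7 lower (12.2%). The lower calls were UFGT and GST at 1, 16 and 20 d and CHI at 16 d, and the higher ones were UFGT at 12 d and DFR and CHS PRUPE_1G003000 at 20 d. In the mean over the warm times, ANS, DFR and F3H were higher in LP by 0.55 ± 0.05, 0.53 ± 0.03 and 0.46 ± 0.04, and CHI was lower by 0.44 ± 0.03. UFGT was lower by 1.09 ± 0.21 (adjusted p = 4.92e-06), but the value was -0.35 without JB 12 d replicate 3 (adjusted p = 0.832), where JB has no read at 12 d, and -0.30 without replicate 3 of every group (adjusted p = 0.821).

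Over all steps between consecutive warm times, counted from 1000 h, 10 of 64 pairs of gene and step were at least 2-fold higher in LP (5.22% of pairs over all tested genes) and 3 lower (3.73%). In JB 8 of 48 were higher (8.39%) and 5 lower (6.65%). With no fold minimum the pairs were 24 higher (16.8%) and 11 lower (16.6%) in LP, and 21 higher (23.9%) and 13 lower (24%) in JB. The first warm day with a call of at least 2-fold over 1000 h came on day 1 in LP for CHS PRUPE_1G002900, CHI, F3H, DFR and ANS, on day 12 for UFGT, day 16 for GST and day 20 for CHS PRUPE_1G003000. In JB it came on day 1 for CHI, DFR, UFGT and GST, on day 4 for CHS PRUPE_1G003000 and F3H and on day 8 for CHS PRUPE_1G002900, and ANS had none. The peak day was 28 d in LP for CHI, UFGT and GST, 24 d for both CHS genes and DFR, 12 d for ANS and 4 d for F3H. It was 20 d in JB for UFGT and GST, 16 d for CHI, 12 d for both CHS genes, F3H and DFR, and 8 d for ANS. Libraries of the peak day and the next highest day overlapped for both CHS genes, F3H and ANS in LP and for CHS PRUPE_1G002900, CHI and ANS in JB, so those peak days are not resolved. The overlap of CHS PRUPE_1G002900 in JB rested on 12 d replicate 3 alone. With 1 replicate left out in turn, the first day ranged from 8 to 20 for CHS PRUPE_1G003000 and from 4 to 20 for UFGT in LP, and from 4 to 12 for F3H in JB.

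Likeness of the courses was measured by Pearson's r of group mean log2 CPM over the 28 groups, as a description. The 15 pairs among both CHS genes, CHI, F3H, DFR and ANS had r of 0.48 to 0.93 (median 0.78). UFGT and GST had r = 0.88 with each other, and -0.18 to 0.62 with the other 6, the higher values being with CHI. All groups share scaling and the same course, and most levels of UFGT and GST rest on few reads. Within groups, deviations of single libraries from their group mean also ran together among the 6 abundant genes, with a median r of 0.64 over 84 libraries (0.42 to 0.92). The tested genes outside the 8 whose courses were most like the mean of the 8 standardised courses were PRUPE_2G326300 (r = 0.95) and PRUPE_3G116300 (r = 0.92). That mean course followed the 6 abundant genes (r = 0.68 to 0.91) more closely than UFGT and GST (r = 0.43 and 0.42). PRUPE_2G326300 had 137 CPM in LP at 28 d and 23.4 CPM at 1000 h. In JB it had 180 CPM at 12 d, 134 CPM at 20 d and 34.6 CPM at 1000 h.

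**Figure D4:**
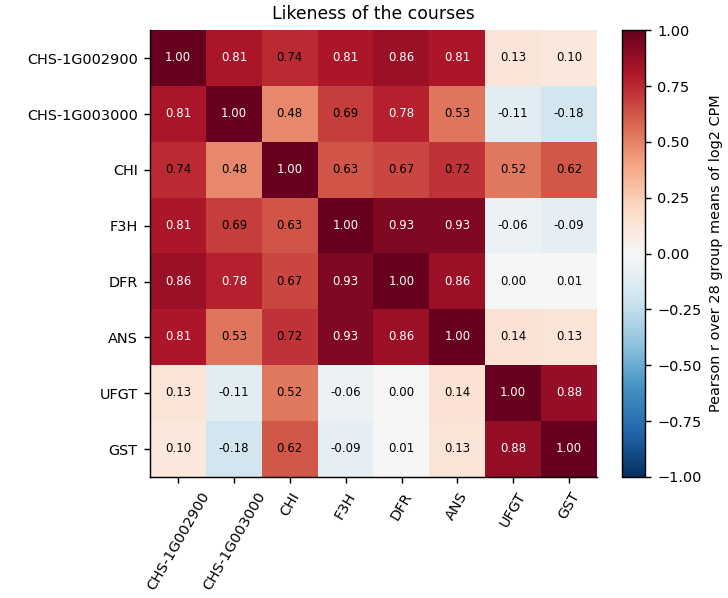
Pearson correlation of group mean log2 CPM over the 28 groups between each pair of the 8 genes (rows and columns), from blue (negative) to red (positive). The 6 genes from CHS to ANS form a block with r from 0.48 to 0.93, and UFGT and GST form another with r = 0.88.

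The balance of the CHS genes moved over the course. The log2 ratio of PRUPE_1G002900 over PRUPE_1G003000 had group means of -0.41 to -0.03 in LP and -0.07 to 0.72 in JB over the chilling times, the highest being JB at 200 h, with -0.31 ± 0.06 in LP and 0.25 ± 0.14 in JB at 1000 h (SD, n = 3 each). After 1 d at 22 °C it was 0.78 ± 0.05 in LP and 0.22 ± 0.04 in JB. It was highest in LP at 28 d, at 1.29 ± 0.11 against 0.31 ± 0.0049 at 24 d, and in JB at 16 d, at 0.78 ± 0.05 against -0.17 ± 0.04 at 12 d. In each of these pairs of groups the libraries did not overlap. PRUPE_1G002900 had 363 ± 52 CPM in LP at 28 d and PRUPE_1G003000 had 149 ± 32 CPM, where at 24 d they had 463 ± 63 and 372 ± 50 CPM. LP 28 d replicate 3 was the highest of its group for both genes. The identifiers are neighbours in numbering, and reads shared by similar copies may be split between them by the counting, or differently by genotype, so the single CHS values are uncertain.

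**Figure D5:**
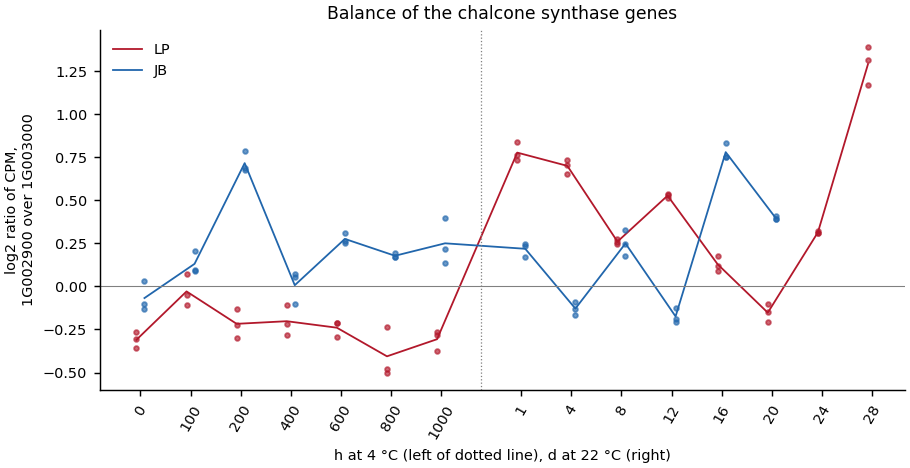
Log2 ratio of CPM of CHS PRUPE_1G002900 over PRUPE_1G003000 by time at 4 °C (h) and 22 °C (d) in LP (red) and JB (blue). Points are libraries and lines join group means. LP lies below JB in chilling and above it at 1 d, and the highest LP values are at 28 d, from 1.17 to 1.39.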

How the data were processed

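RNA of floral buds was sequenced in 84 libraries. The deposited values are raw counts per gene, as whole numbers, made by the authors. Per the submitters' processing notes, FastQC 0.11.9, Trimmomatic, STAR 2.6.0 and edgeR were used. How reads were assigned to genes, and on which build and strand, is not given in the labels or notes, so reads of similar or overlapping genes may be assigned either way.

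Of 26879 genes, 947 had no read, and 5711 failed edgeR's filter on low counts and held 0.028% of reads. One edgeR 4.0.16 quasi-likelihood fit (R 4.3.3) took the remaining 21168 genes in all 84 libraries, with TMM scaling, 28 group means and 56 residual degrees of freedom. Benjamini-Hochberg adjustment covered the 21168 genes separately in each of 76 comparisons. A call is an adjusted p under 0.05, and counts of members ask in addition for a 2-fold change unless said otherwise. SEs are those of the fitted log2 changes. Where a group had no read, the bound on its fold takes 3 counts as that group's summed level and reflects counting error alone. Log2 CPM used a prior count of 2. The code was tested on simulated data.

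The named genes are the 8 members and the 2 other tested genes with the most similar course. The members and lists were chosen with earlier results of these data known, and the single chilling steps, the differences of single steps between genotypes and LP at 28 d against JB at 16 d were added after the data were seen. The table of RefSeq genes shared no identifier with the count table (0 matched), so sequences and positions were not analysed here. A list of identifiers of other pathway genes was drawn up, but none could be tied to a product here. They were therefore not analysed as pathway genes. PRUPE_2G326300, the gene with the most similar course, was on that list. Alternatives were DESeq2 1.42.0, its size factors, omitting the filter, fitting only the compared groups, a replicate block, no fold minimum and leaving out replicates or the libraries that stood apart.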

Additional observations from a re-analysis of the deposited data

Results flagged for a closer look

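The genotypes' responses differed by a test of the difference itself, with a call of at least 2-fold, in the following cases, all given as LP minus JB on the log2 scale (edgeR quasi-likelihood test, Benjamini-Hochberg adjusted). For the response to 20 d of warmth against 1000 h of chilling, the difference was 1.10 for CHS PRUPE_1G002900, 1.08 for CHS PRUPE_1G003000, 1.05 for F3H, 1.92 for DFR and 1.00 for ANS, against -3.56 for UFGT. All of the positive ones but DFR lie close to 2-fold: 3 genes were left at 2-fold with DESeq2 or its size factors, and 1 without replicate 3 of every group, where 15.3% of tested genes passed. For the response at each genotype's own start of bloom it was 1.41 for CHS PRUPE_1G002900, 1.01 for DFR and 1.18 for ANS, against -2.42 for UFGT. All these responses share the 1000 h libraries of each genotype.

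The response to chilling differed by 1.00 for CHS PRUPE_1G003000 (2.99% of tested genes passed), and no member was left at 2-fold with DESeq2, with its size factors, when only the compared groups were fitted, without replicate 1 or 2 of every group or without JB 12 d replicate 3. On the first warm day the difference was 1.23 for ANS and -2.62 for UFGT. Over the last sampled step it was -2.75 for UFGT and -1.13 for GST. For the step between 100 and 200 h of chilling it was -1.82 for CHS PRUPE_1G002900, -1.04 for CHS PRUPE_1G003000, -1.19 for CHI, -1.99 for DFR and -1.55 for ANS. For the step between 200 and 400 h, which shares the 200 h libraries with it, it was 2.12, 1.39, 1.31, 1.77 and 1.29 for the same genes in the same order. The part of the 3 JB libraries at 200 h in these values was not tested.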

How the results depend on the processing

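Without a fold minimum, member counts were 24 higher and 11 lower over LP warm steps (10 and 3 in the report, with 16.8% and 16.6% of all pairs of gene and step). Over JB warm steps they were 21 higher and 13 lower (8 and 5, with 23.9% and 24% of all pairs). The chilling mean held 7 lower (0, with 32.3% of tested genes) and the chilling response 4 higher (1, with 17.2%). The remaining counts have no share of all tested genes beside them, so they are not read as traits of the members. They were 6 higher in JB at 20 d (3) and 6 lower in LP at 1000 h (3). LP against JB gave 2 higher and 28 lower at single chilling times (1 and 6), and 20 higher and 17 lower at single warm times (3 and 7). The warm mean held 3 higher and 2 lower (0 and 1), and the 20 d response 2 lower (1). LP at 28 d against JB at 20 d held 4 higher (0). With DESeq2 the 20 d response held 3 higher and 3 lower genes (5 and 1), the warm mean 2 lower and the chilling response 0. With DESeq2's size factors the 20 d response held 3 higher and 2 lower, and the chilling response 0. In a fit of only the groups compared, LP at 1000 h held 1 lower gene, single chilling times 0 higher, the chilling response 0 and LP at 28 d against JB at 20 d 1 higher, and that last count was also 1 without the filter. Without JB 12 d replicate 3 the warm mean held 0 lower genes, the chilling response 0, and LP at 28 d against JB at 20 d 1 higher. At LP 1000 h the filter dropped UFGT and GST from the smaller fit, and elsewhere the cause was not tested.

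Leaving out 1 replicate of every group in turn gave ranges of 1 to 4 lower over LP warm steps, 0 to 2 higher and 6 to 10 lower at single chilling times, 0 to 1 lower in the warm mean, 1 to 5 higher and 1 to 2 lower in the 20 d response, 1 to 3 higher and 0 to 1 lower at own bloom, 0 to 1 higher in the chilling response and 0 to 1 higher in LP at 28 d against JB at 20 d. The onset day ranged from 8 to 20 for CHS PRUPE_1G003000 in LP, 4 to 12 for F3H in JB and 4 to 20 for UFGT in LP. Asking for 4-fold moved the onset to day 24 for CHS PRUPE_1G002900 in LP, 16 for CHI in JB, 28 for CHI in LP and 20 for UFGT in LP. Reversals were seen in values that were not called: with 1 replicate left out, F3H in JB at 20 d ranged from -0.12 to 0.11, UFGT in LP at 1 d from -0.61 to 0.62, and CHS PRUPE_1G003000 in LP at 28 d against JB at 20 d from -0.11 to 0.23, and the last was -0.05 without LP 28 d replicate 3.

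Same-numbered LP and JB libraries of the same time did not deviate together (39 correlations from -0.15 to 0.12, 13 of 39 libraries correlating best with their own number). No pairing by number was seen in this, but a shared unit is not excluded. Shared numbers across times within a genotype were not looked at. With a replicate block, JB at 20 d held 3 and LP at 28 d held 6 higher genes, as without it, and none of the 147 single values tried changed its call. DESeq2 and its size factors each kept the call of 146 of them, omitting the filter kept 147, and leaving out replicate 1, 2 or 3 ended 11, 8 and 6 calls. UFGT and GST before bloom rest on few reads, so small changes there were not detectable at this depth.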
